A study of Homo sapiens with 6 samples.

Results

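Processed pseudogenes are copies of messenger RNAs that were reverse transcribed and inserted into the genome, so they usually lack introns and a promoter of their own. They arise mainly from genes that are abundant in the germ line, such as those of ribosomal proteins, glycolytic enzymes and cytoskeletal proteins, and a young copy can differ from its parent gene at very few bases. Reads from the parent's messenger RNA can therefore align to the copy, and a copy can also lie inside another gene and be overlapped by that gene's transcripts. The annotation class used here also holds stretches of mitochondrial DNA that were inserted into the nuclear chromosomes.

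The features described were chosen by annotation type alone. All rows of the deposited count table typed as processed pseudogene (1571) or transcribed processed pseudogene (137) were taken, which gave 1708 of 23384 features. All libraries came from CAL27, a long-established line of human squamous carcinoma cells from the mouth. The control group was 3 libraries of CAL27 labelled wild type and given vector, and the overexpression group was 3 libraries of CAL27 given a plasmid that overexpresses TNFAIP2. Tumour necrosis factor induces TNFAIP2, and the title of the series places its question in NF-κB signalling and lymph node metastasis. Neither the plasmid's promoter nor whether a group was 1 culture or 3 is given in the sources used here. The p-values therefore rest on a spread between libraries that may be technical only.

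The libraries held 3092261 to 3527161 counts. Counts under TNFAIP2's own name were 194, 112 and 162 in the controls and 194, 152 and 142 in the overexpression-labelled libraries, which gives no check of the labels. All 10 squamous epithelial markers examined had a mean of at least 10 counts. They summed to 2922 to 5009 counts in controls and 4149 to 5746 in overexpression-labelled libraries. Of 6 fibroblast markers, 3 were in the table used here, at 3 to 11 counts in controls and 6 to 21 in overexpression-labelled libraries, and COL3A1, DCN and LUM had no row. Of 4 endothelial markers 1 was there, at 15 to 32 and 18 to 41 counts, and KDR, PECAM1 and VWF had no row. Of 4 leukocyte markers 3 were there, at 1 to 7 and 1 to 8 counts, and PTPRC had no row. Libraries also differed in the own-strand ratio. For each feature lying inside a protein-coding gene's exons on the other strand, the gene's count was divided by the feature's count. Counts were not scaled for length. The own-strand ratio is the median of these quotients over 340 such features that are not processed pseudogenes. The ratio was 0.0973, 0.0920 and 0.167 in the controls and 0.183, 0.129 and 0.185 in the overexpression-labelled libraries (replicates 1, 2 and 3 in that order, as throughout), so control 3 lay with overexpression-labelled replicates 1 and 3. A ratio under 1 means that the opposite feature held more counts than the gene itself. The opposite features were chosen for a total of at least 60 counts, with no minimum on the gene, which favours a ratio under 1. The strand setting used in counting is not given in the sources used here. Where a feature lies opposite an exon, its counts could be reads of the gene's own messenger RNA assigned to the other strand. Whether the whole table was counted on the wrong strand was not tested, and every count of such a feature below is a count under its name, not a level of pseudogene RNA.

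Sequences of 3 pseudogene features are shown because they show how nearly a feature with counts can match a functional gene. They come from the transcript models of GENCODE release 29 (GRCh38), read 5′ to 3′ on the strand of the feature, and capitals mark the bases that differ within each pair. ENSG00000230021, the feature with the most counts, has an exon at chr1:633044-633129 on the minus strand that differs at 2 of 86 bases from the reverse complement of MT-CO2, a mitochondrial gene for a subunit of cytochrome c oxidase.
ENSG00000230021 exon: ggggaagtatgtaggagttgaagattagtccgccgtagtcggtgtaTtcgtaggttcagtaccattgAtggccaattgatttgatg
MT-CO2 reverse complement: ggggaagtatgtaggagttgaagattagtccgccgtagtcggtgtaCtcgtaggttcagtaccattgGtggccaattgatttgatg
MTND4LP30, at chr5:134928030-134928326 on the minus strand, differs at 15 of 297 bases from MT-ND4L, which encodes a small subunit of respiratory complex I.
MTND4LP30: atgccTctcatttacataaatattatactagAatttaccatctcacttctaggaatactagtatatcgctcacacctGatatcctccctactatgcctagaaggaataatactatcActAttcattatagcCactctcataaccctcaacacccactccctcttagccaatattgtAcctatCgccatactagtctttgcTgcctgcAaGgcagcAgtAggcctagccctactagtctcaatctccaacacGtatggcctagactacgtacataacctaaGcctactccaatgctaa
MT-ND4L: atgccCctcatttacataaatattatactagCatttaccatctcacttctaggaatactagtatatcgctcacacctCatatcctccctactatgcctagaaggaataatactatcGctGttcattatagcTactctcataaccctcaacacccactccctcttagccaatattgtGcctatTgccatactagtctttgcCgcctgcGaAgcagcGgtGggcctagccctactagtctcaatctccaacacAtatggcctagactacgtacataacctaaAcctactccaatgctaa
ENSG00000237550 is a copy of RPL9, a protein of the large ribosomal subunit, and differs from it at 1 of 579 aligned bases, the last base of the stretch at chr15:82372523-82372642 on the minus strand.
ENSG00000237550: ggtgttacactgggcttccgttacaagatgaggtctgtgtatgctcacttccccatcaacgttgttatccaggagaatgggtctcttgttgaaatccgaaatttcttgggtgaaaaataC
RPL9: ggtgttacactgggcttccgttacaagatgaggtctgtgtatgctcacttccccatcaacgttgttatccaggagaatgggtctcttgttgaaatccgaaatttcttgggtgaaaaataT

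Few of the pseudogene features held many counts. Their median was a mean of 0.667 counts per library, and 453 had a total of 1 count over the 6 libraries. A mean of at least 1 count was reached by 745 features, of at least 10 by 163, of at least 100 by 27 and of at least 1000 by 5. All 6 libraries held a count for 272 of them. The share with a mean of at least 10 counts was 9.54%, against 22.3% of unprocessed pseudogenes, 38.5% of long noncoding RNAs and 63.5% of protein-coding genes in the table. The median feature had 609 exonic bases, and 1415 had a single exon.

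Pseudogene features held 3.74%, 4.25% and 3.75% of the library in the controls and 3.85%, 4.11% and 3.96% in the overexpression-labelled libraries. The groups overlapped, with 3.92% ± 0.290 in controls and 3.97% ± 0.13 in overexpression-labelled libraries (SD, n = 3; two-sided exact permutation p = 0.8, where the smallest possible is 0.1). ENSG00000230021 alone took 79.6% of all pseudogene counts, and the 10 highest features took 93.8%. A share of the library therefore describes 1 feature more than the class.

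ENSG00000230021 (chr1:586071-827796, minus strand) is a transcribed processed pseudogene of 5495 exonic bases that crosses an insertion of mitochondrial DNA on chromosome 1. It had 95403, 123343 and 96449 counts in the controls and 104528, 111187 and 108579 in the overexpression-labelled libraries. These are 34239 ± 5681 and 29539 ± 2597 CPM (counts scaled to library size with TMM factors; SD, n = 3). The groups overlapped, and the log2 fold change (overexpression-labelled over control) was -0.21, with SE 0.18 and an edgeR adjusted p of 0.84. Its exon shown above and another of 74 bases at chr1:631131-631204, which differs at 1 base from the reverse complement of MT-CO1, lie opposite the unprocessed pseudogenes MTCO2P12 and MTCO1P12 on the plus strand. MTCO1P12 had 1867, 3377 and 6557 counts in the controls and 7933, 4304 and 5327 in the overexpression-labelled libraries, and MTCO2P12 between 1512 and 3108. ENSG00000278791, typed as a microRNA, lies on the minus strand of the same insertion (chr1:632325-632413). It had 43948, 62349 and 50809 counts in the controls and 51805, 56262 and 49868 in the overexpression-labelled libraries. The counts are per feature, so how the 95403 to 123343 counts divide among the exons of ENSG00000230021 was not tested. Counts of the mitochondrial genes themselves were not analysed here, and reads from a gene and its nuclear copy cannot be told apart in a table of features.

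A second mitochondrial insertion lies within PCBD2 on chromosome 5 and holds 6 pseudogene features, named for mitochondrial genes of respiratory complex I and for cytochrome b. Their 11.6% of pseudogene counts lay almost all on 3 features. MTND5P11, a copy of the complex I gene MT-ND5 (chr5:134924648-134926459, minus strand, 93.0% identical), had 4036, 6541 and 6264 counts in the controls and 8251, 8385 and 9360 in the overexpression-labelled libraries. MTND4P12, a copy of MT-ND4 (chr5:134926660-134928036, minus strand, 95.8% identical), had 3302, 5085 and 5467 counts in the controls and 7209, 6754 and 7186 in the overexpression-labelled libraries. For both, every overexpression-labelled library was above every control in CPM, a pattern that 5.54% of the 11851 tested features had.

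The differences of both did not pass the test over all features. The log2 fold change of MTND5P11 was 0.39 (SE 0.19; edgeR adjusted p = 0.83), from 1805 ± 328 to 2364 ± 181 CPM (SD, n = 3). That of MTND4P12 was 0.37 (SE 0.19; edgeR adjusted p = 0.83), from 1482 ± 250 to 1922 ± 42.5 CPM (SD, n = 3). Without control 1, the lowest library for both, these log2 fold changes were 0.25 and 0.24. MTND6P4, on the other strand of the same insertion, had 1612, 2271 and 2058 counts in the controls against 2332, 2314 and 2384, and a log2 fold change of -0.003 (SE 0.18), with overlapping groups in CPM. The sign of that value changed with the scaling. MTND4LP30 had 252, 397 and 339 counts against 400, 492 and 422, and its log2 fold change was 0.17 (SE 0.22). MTCYBP18, a copy of the cytochrome b gene, had 11, 8 and 15 counts against 25, 26 and 34, a difference of 1.07 on the log2 scale (SE 0.56; edgeR adjusted p = 0.83). MTND3P25, the sixth, had 2 counts in 1 library. The host gene PCBD2 itself had 6 to 14 counts. The other 26 features with mitochondrial names together held 56 to 112 counts per library.

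**Figure D1:**
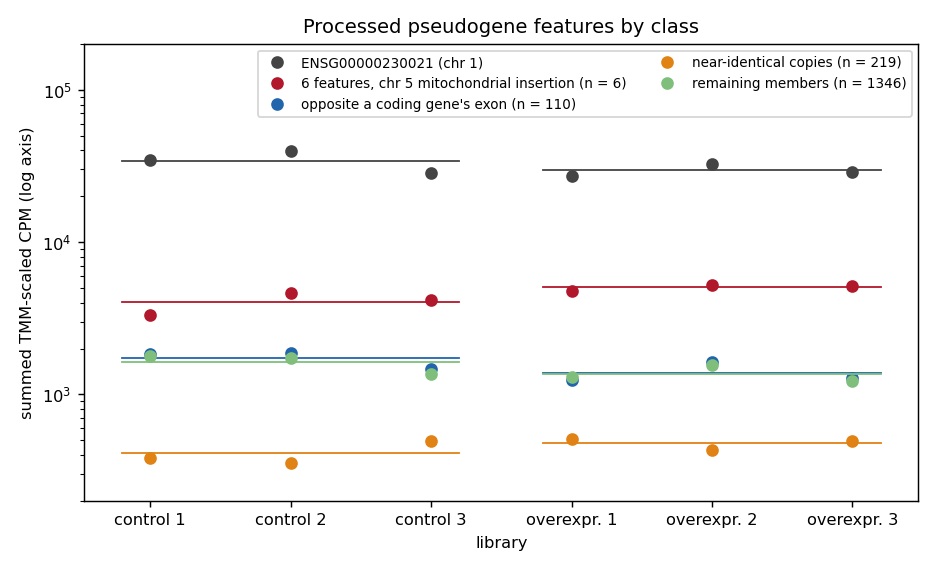
Summed CPM after TMM scaling (log axis) of the classes of pseudogene features in each of the 6 libraries; points are libraries and lines are group means. ENSG00000230021 lies highest, at 27321 to 39791 CPM, and the chromosome 5 insertion is the class shown whose 3 overexpression-labelled values, 4762 to 5236, all lie above the controls, 3331 to 4614.

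The share of pseudogenes that had counts, mitochondrial features included, differed with position relative to protein-coding genes. GENCODE release 29 annotates 10672 processed pseudogenes, and 1705 of the 1708 features were matched to it. Of the 175 with at least 50 exonic bases opposite an exon of a protein-coding gene, on the other strand, 109 were in the table (62.3%). Of the 144 that overlap such an exon on the same strand, 9 were (6.25%). Opposite an intron it was 651 of 2016 (32.3%), in an intron on the same strand 150 of 1141 (13.2%), and away from protein-coding genes 772 of 7150 (10.8%). A mean of at least 10 counts was reached by 22.9% of those opposite an exon, 1.94% of those opposite an intron, 1.01% of those away from coding genes and 0% of those on the same strand as the exon. In number these were 40 opposite an exon, 39 opposite an intron and 72 away from coding genes. A feature with more exonic bases can reach the limit of 50 more readily, and length was not taken into account. Counting tools can leave out reads that overlap 2 features on 1 strand, and the counting mode is not given in the sources used here.

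More counts often stood under a pseudogene opposite an exon than under the gene on the other strand, here called the host. Reads of the host's messenger RNA cannot be told apart from reads of the pseudogene in these values. Most of these features lie opposite the host's exons over only a part of their bases, so the ratios below largely compare different sequence. Per kb of exon, 65 of 106 had more counts than the host gene, with a median ratio of 1.77. For the 27 with at least 90% of their bases opposite the host's exons it was 20, with a median ratio of 3.97. Among the 40 with a mean of at least 10 counts it was 32, with a median ratio of 9.88. Of the 12 that met both conditions, 11 exceeded the host, and the ratio ran from 0.935 to 551 with a median of 20.4. The threshold of 10 counts is on the pseudogene and raises these ratios. Relative to the host, 21 of the features lay on the 3′ side of the coding sequence, 23 on the 5′ side and 38 between coding exons. The overlap was with coding sequence for 5 and with coding sequence in part for 22.

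ENSG00000259948, a copy of VAPA (92.7% identical; VAPA anchors proteins of the endoplasmic reticulum membrane), lies opposite exon sequence of the lipid hydrolase gene ABHD2, on the 3′ side of its coding sequence (chr15:89201091-89201768, minus strand). It had 1473, 1805 and 1502 counts in the controls and 1462, 1724 and 1315 in the overexpression-labelled libraries, 519 ± 70.7 and 412 ± 80.3 CPM (SD, n = 3). ABHD2 under its own name had 33, 41 and 106 against 101, 67 and 101 counts. Per kb of exon the counts under the pseudogene's name were 315 times those under ABHD2, and whether they are reads of ABHD2 was not tested. The parent gene VAPA had 173 to 369 counts.

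The others with high counts repeated this order of pseudogene over host. CEP164P1, a copy of the centriole gene CEP164, had 785, 899 and 775 against 776, 827 and 776 counts. Only 18.3% of its bases lie opposite exons of the zinc finger gene ZNF22, which had 5 to 29 counts. ANKRD36BP1, within SFT2D2, had 176, 301 and 301 against 257, 312 and 248 counts, with 11 to 71 under SFT2D2. ENSG00000234983 lies within PSMA2, a gene for a proteasome subunit, and had a mean of 53.8 counts where PSMA2 had a mean of 0.5. VDAC1P8 was an exception, at 0.958 times its host FUCA2 per kb, with only 7.42% of its bases opposite that gene's exons.

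ARL14EPP1 lies in part opposite exons of EIF2AK2, the gene of the double-stranded RNA-activated kinase PKR. It had 225, 206 and 218 counts in the controls and 224, 227 and 251 in the overexpression-labelled libraries. EIF2AK2 ran from 21, 50 and 129 counts in the controls to 102, 69 and 79, so the host varied over a wider range than the pseudogene. IMPDH1P10, within the caspase-8 regulator CFLAR, had 298, 241 and 208 counts against 193, 210 and 202, and 82.3 ± 23.5 against 55.1 ± 5.5 CPM (SD, n = 3; log2 fold change -0.58, SE 0.25; edgeR adjusted p = 0.83). CFLAR itself had 181, 174 and 216 against 164, 170 and 192 counts. WTAPP1, opposite an exon of the collagenase gene MMP1 over 4.5% of its bases, had 150, 167 and 146 against 117, 145 and 124 counts, with 0 to 13 under MMP1.

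**Figure D2:**
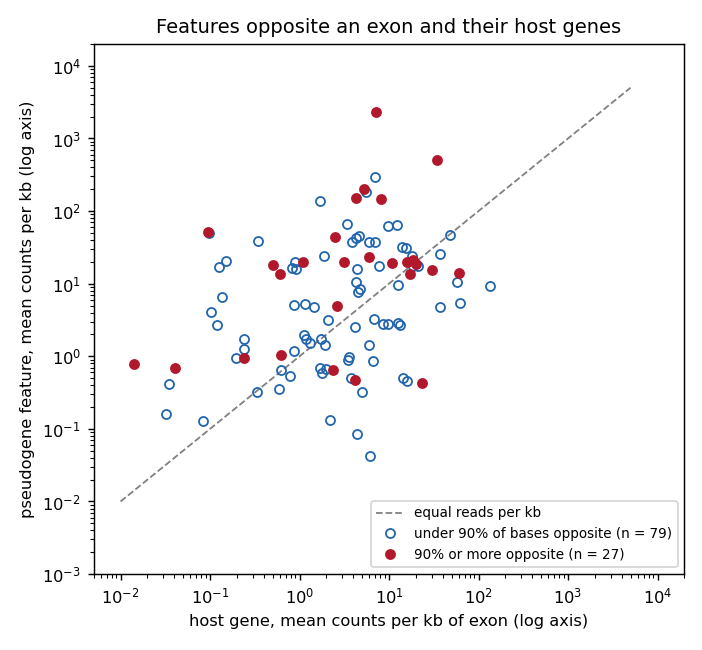
Mean counts per kb of exon (log axes) of 106 pseudogene features opposite an exon, against the host gene on the other strand; filled points have at least 90% of their bases opposite and the dashed line marks equal values. Of the 106 points, 65 lie above the line, and the highest is ENSG00000259948 within ABHD2.

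The share of pseudogene counts on features opposite an exon was 4.41%, 3.85% and 4.08% in the controls and 3.54%, 3.93% and 3.43% in the overexpression-labelled libraries. The groups overlapped, at 4.11% ± 0.284 and 3.63% ± 0.262 (SD, n = 3; two-sided exact permutation p = 0.2).

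Identity to a functional gene was measured by aligning each feature to protein-coding and mitochondrial transcripts. A match on the same strand was found for 1617 of the 1708, with a median identity of 90.4% (quartiles 84.2% and 94.8%), and 18 matched at 100%. Among features with a match, 918 carry the matched gene's name followed by P, with or without a number. Counted separately, 990 with a match have a symbol ending in P and a number. Near-identical copies, at least 97% identical over at least 90% of their length and outside the other classes, numbered 219. They held only 1058, 1095 and 1679 counts in the controls and 1946, 1482 and 1849 in the overexpression-labelled libraries.

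RPS2P5, a copy of RPS2 (98.8% identical), a gene for a protein of the small ribosomal subunit, lies in an intron of TAOK3. It had 327, 347 and 702 counts in the controls and 730, 534 and 709 in the overexpression-labelled libraries. Control 3 lay with overexpression-labelled replicates 1 and 3, and the groups were 146 ± 53.2 and 178 ± 19.8 CPM (SD, n = 3; log2 fold change 0.29, SE 0.23; edgeR adjusted p = 0.84). RPS2 itself had 3461 to 3683 counts in the controls and 4507 to 5877 in the overexpression-labelled libraries.

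ENSG00000237550, the copy of RPL9 with 1 differing base, had 22, 31 and 203 counts in the controls and 222, 81 and 106 in the overexpression-labelled libraries. Control 3 was again the highest control, and the log2 fold change was 0.49 (SE 0.84; edgeR adjusted p = 0.91). RPL9 had 379, 462 and 510 counts against 616, 615 and 718, so RPL9 and its copy did not follow the same order over the libraries.

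Families of parent genes were read from the symbol, so the 651 features without a symbol, ENSG00000237550 among them, are in no family. Among the families, named copies of cytosolic ribosomal protein genes were the most numerous. They numbered 231 with a mean of 1244 counts per library in all, against 48030 on the ribosomal protein genes themselves. Of 16 tested, 7 had a positive and 9 a negative log2 fold change and 0 passed the test. The 54 copies of actin, tubulin, keratin and other cytoskeletal genes held 235 counts, with KRT8P12, a copy of the simple-epithelial keratin KRT8, at 69, 44 and 18 against 38, 67 and 57 counts. KRT8P12 also lies in part opposite KPNA4. The 47 copies of chromatin protein genes held 233 counts, led by HMGB1P5, a copy of the high mobility group gene HMGB1 (97.9% identical), with 68, 67 and 54 against 56, 72 and 105 counts.

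Named copies of other highly expressed genes held few counts. The 17 copies of glycolytic enzyme genes held a mean of 11.8 counts per library, against 7783 on their parents, and the 12 ferritin copies held 7.33 against 5242. Neither family had a member that passed the filter on low counts. The families of mitochondrial ribosomal proteins, translation factors, respiratory chain, RNA-binding proteins, chaperones and proteasome and ubiquitin enzymes had 6 tested members between them, and 0 were called. EEF1A1P5, a copy of the elongation factor gene EEF1A1 at 99.7% identity, had 14, 15 and 14 counts against 33, 8 and 24. CYCSP10, a copy of the cytochrome c gene CYCS, had 1, 0 and 2 against 8, 12 and 15 counts and was too low to be tested. The 1179 features in no family, which include those without a symbol, held 138 of the 171 tested.

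The comparison of overexpression-labelled with control libraries could be made for 171 of the 1708 features, and 1537 were too low. With edgeR's quasi-likelihood test, 0 of the 171 passed an adjusted p of 0.05, as did 0 of all 11851 features tested (0.0%), and the lowest adjusted p was 0.83. DESeq2 and limma-voom also called 0. At an unadjusted p under 0.05, edgeR gave 11 of the 171 (6.43%), against 4.89% of all features. Of these 2 were higher (1.17%, against 1.83% of all features) and 9 lower (5.26%, against 3.06%). Limma-voom gave 11 of the 171, against 722 of 11851 features. DESeq2, fitted without a filter on low counts, gave 23 of 1708, against 715 of 23384 features.

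The lowest unadjusted p belonged to ENSG00000215493, a copy of KLHL12 (95.7% identical) on chromosome 22. It had 31, 35 and 28 counts in the controls and 4, 5 and 16 in the overexpression-labelled libraries, with no overlap between groups (log2 fold change -2.16, SE 0.61; edgeR adjusted p = 0.83). ENSG00000215493 would not have passed the filter on low counts without the controls, where it is high. Its direction and lack of overlap are therefore in part set by the filter and by the choice of the lowest p. ENSG00000260103 had 68, 99 and 86 against 54, 54 and 40 counts (log2 fold change -1.02, SE 0.33; edgeR adjusted p = 0.83). ENSG00000225507, a partial copy of the mitotic kinase gene TTK, had 128, 124 and 114 against 82, 98 and 78 counts. FAHD2P1, opposite exons of the phosphatase gene PTPRR, had 68, 46 and 55 against 39, 34 and 35 counts. In each of these 4, every control was above every overexpression-labelled library in CPM, which held for 15 of the 171 features (8.77%) and for 4.92% of all features.

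In the other direction, RPL28P2 had 9, 4 and 6 counts in the controls and 34, 30 and 8 in those labelled overexpression, 1.64 on the log2 scale (SE 0.71; edgeR adjusted p = 0.83). It is a diverged copy of the ribosomal protein gene RPL28 (74.0% identical) opposite COPS7B, and overexpression-labelled replicate 3 lay among the controls. PHBP9, a copy of the prohibitin gene PHB, had 9, 6 and 6 against 22, 16 and 25 counts (log2 fold change 1.29, SE 0.67). All 3 overexpression-labelled libraries were above the controls for PHBP9, which held for 7 of the 171 features (4.09%) and for 5.54% of all features. PHBP9 passed the filter on low counts only with the overexpression-labelled libraries, where it is high, so its direction is in part set by the filter.

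Of the 6 fits that each left out 1 library, only the one without control 3 called any pseudogene feature. Without it, 9 of 205 tested pseudogene features passed (4.39%), against 7.41% of all features tested. Over all features 4.13% passed as higher and 3.28% as lower. Higher were ENSG00000237550 (log2 fold change 2.02) and RPS2P5 (0.63). Lower were TOMM40P4 (-1.0), ENSG00000215493 (-2.30), ENSG00000230064 (-3.05, SE 0.945), IMPDH1P10 (-0.76), ENSG00000255585 (-0.75), ENSG00000259950 (-5.00, SE 1.53) and ENSG00000260103 (-1.07). Without control 3 the filter on low counts asks for fewer libraries, so features high in controls 1 and 2 alone could enter. ENSG00000230064, with a mean of 9.17 counts over all libraries, was too low for the fit of all libraries. The 2 called higher are near-identical copies of ribosomal protein genes, and 3 of the 7 called lower lie opposite an exon. The own-strand ratio of control 3, 0.167, was close to that of overexpression-labelled replicates 1 and 3, and its part in these calls was not tested.

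Over the 171 tested features the log2 fold change had a median of -0.22 and was positive for 56, or 32.7%, against a median of 0.02 and 51.9% positive over all features. With scaling to library totals the medians were -0.05 and 0.18, and 77 of the 171 were positive. The median also moved with single libraries: it was -0.07 without control 1 (88 of 203 positive), -0.09 without control 2 (87 of 202) and -0.32 without control 3 (65 of 205). The classes differed in sign. Near-identical copies had a median of 0.28, with 14 of 18 positive. Features opposite an exon had -0.34, with 9 of 43 positive, and the remaining features had -0.25, with 27 of 101 positive. Leaving out each library in turn, these medians ranged from 0.18 (without overexpression-labelled replicate 1) to 0.32 for near-identical copies, from -0.44 to -0.22 (without control 2) for features opposite an exon and from -0.37 to -0.11 (without control 1) for the remaining features. By identity, the median was -0.35 under 85% (41 tested), -0.29 from 85% to 90% (37) and -0.18 from 90% to 95% (41). It was -0.41 from 95% to 97% (15), 0.25 from 97% to 99% (15) and 0.35 above 99%, where only 4 were tested. These are descriptions over features that share libraries, and the limit of 97% was set after values had been seen.

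The sums of 3 of the classes also went with the own-strand ratio from library to library. Counts of other features opposite exons are the denominator of that ratio. For the class opposite an exon, the relation is therefore in part built into the definition. Near-identical copies summed to 383, 353 and 495 CPM in the controls and 509, 432 and 492 in the overexpression-labelled libraries. They were highest in the 3 libraries with the highest ratio (control 3 and overexpression-labelled replicates 1 and 3) and lowest in controls 1 and 2. Within that sum, RPS2P5 had 118, 112 and 207 CPM in the controls and 191, 156 and 189 in the overexpression-labelled libraries. ENSG00000237550 had 7.953, 10.0 and 59.85 against 58.03, 23.6 and 28.21. Their joint rise from controls 1 and 2 to control 3 was at least as large as that of the sum. The order of the sum therefore does not describe the other copies. Features opposite an exon summed to 1847, 1862 and 1465 CPM in the controls and 1246, 1621 and 1271 in the overexpression-labelled libraries, and were lowest in those same 3 libraries. The remaining features summed to 1790, 1727 and 1355 against 1305, 1549 and 1224 CPM, with the same 3 libraries lowest. On this scale ENSG00000230021 was also lowest there, with 34490, 39791 and 28437 against 27321, 32395 and 28900 CPM. The chromosome 5 insertion did not follow the ratio, with 3331, 4614 and 4170 against 4762, 5236 and 5160 CPM. It was lowest in control 1 and highest in overexpression-labelled replicate 2.

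On the CPM scale of unadjusted library totals, an alternative added after seeing the data, the sum of near-identical copies was again highest in those 3 libraries. It was 342, 310 and 517 against 556, 430 and 526, with RPS2P5 and ENSG00000237550 included. Features opposite an exon had 1652, 1636 and 1530 against 1362, 1613 and 1358, again lowest in those 3 libraries. The remaining features had 1601, 1517 and 1415 against 1427, 1541 and 1307, also lowest there. In these 3 classes control 3 lay outside the range of controls 1 and 2, on the side of the overexpression-labelled libraries, on both scales. The log2 own-strand ratio was also used as a covariate. There it was taken over 352 features lying inside exons on the other strand, processed pseudogenes included. The covariate was thus computed in part from features it adjusts. With it, the median log2 fold change of the 171 features was 0.00 against -0.02 over all features. That of near-identical copies was 0.18 and that of features opposite an exon -0.08. The ratio and the group are partly aligned over the 6 libraries, so a part of each cannot be told apart.

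**Figure D3:**
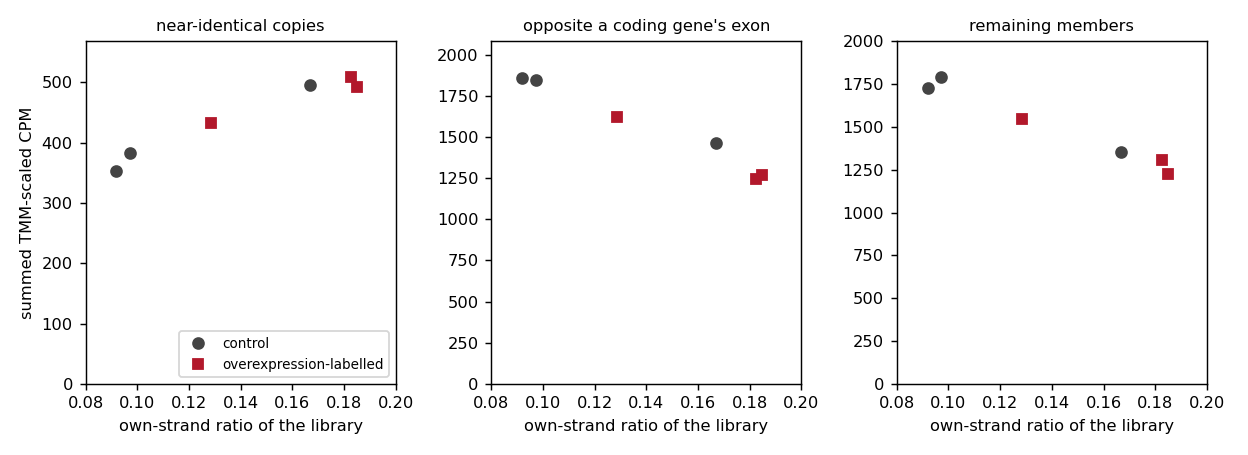
Summed CPM after TMM scaling of 3 classes of pseudogene features against the own-strand ratio of the library, computed without pseudogene features; each point is 1 of 6 libraries and axes of CPM start at 0. Near-identical copies run from 353 to 509 CPM with rising ratio, while features opposite an exon and the remaining features run from 1862 to 1246 and from 1790 to 1224. RPS2P5 and ENSG00000237550 hold much of the rise of near-identical copies. Other features opposite exons form the denominator of the ratio.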

How the data were processed

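RNA-seq libraries from 6 samples of CAL27 cells were prepared with a stranded mRNA kit, per the labels' protocols. Builds GRCh38 and hg38 and the tools HTSeq 0.13.5, HISAT2 2.2.0 and Trim Galore 0.6.4 are listed in the submitters' processing notes. The values the authors deposited are raw read counts per feature, with coordinates, type and symbol. None of the strand setting, the counting mode and the annotation release is given in the sources used here. Reads that align equally to a parent gene and its copy may have been dropped or placed on either, and the count of a near-identical copy is therefore uncertain.

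All features were fitted together in edgeR 4.0.16 (R 4.3.3) with filterByExpr by group, TMM scaling, glmQLFit (robust) and glmQLFTest, and Benjamini-Hochberg adjustment over 11851 features at 0.05. DESeq2 1.42.0 and limma 3.58.1 were alternatives. Simulated counts with known changes were used to test the fit. Exons of GENCODE 29 placed features relative to protein-coding genes (at least 50 exonic bases; pyranges 0.1.4, pandas 2.3.3, Python 3.11.15). Identity came from BLAST 2.17.0 (word size 16, e-value 1e-10) to transcripts of other loci. Contained features behind the own-strand ratio had at least 90% of their exonic bases opposite a coding exon and a total of at least 60 counts, with 0.5 added. Exact permutation tests went over every split of the libraries in Python, and figures used matplotlib 3.10.9. Library totals were 3092261, 3527161 and 3247683 for controls and 3497920, 3449191 and 3517878 for overexpression-labelled libraries. Within groups, pairs of libraries differed beyond sampling noise (chi-square per degree of freedom 5.07 to 19.4), and all were kept.

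Members, lists, families and classes were chosen with earlier results of these data known. Named features were the 12 with the highest CPM, the 5 with the lowest p in each direction, the top 2 of each parent family and the 5 highest transcribed ones, of which some are described. The remaining chromosome 5 features, ENSG00000237550, WTAPP1, ENSG00000234983 and the features called without control 3 were added after their values were seen. Library totals as the scale of class sums were an added alternative.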

Additional observations from a re-analysis of the deposited data

How the results depend on the processing

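The number of pseudogene features called stayed at 0 with DESeq2, limma-voom, the other scalings and filters and the own-strand covariate, and ranged from 0 to 9 when each library was left out in turn, with 9 only without control 3. Replicate numbers shared by the groups did not pair the libraries: deviations of same-numbered libraries correlated at -0.247, 0.15 and -0.0466. With the numbers as a replicate block, 0 were called.

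The share of library counts on these features differed by 0.0538 percentage points (overexpression-labelled minus control). This became -0.00918 without the 10 highest features, and ranged from -0.0323 to 0.221 when leaving out a library. The difference in the share of counts opposite an exon kept its sign under every alternative run. With the own-strand covariate, the log2 fold change became 0.0382 for ENSG00000230021, -0.132 for RPS2P5 and -0.484 for ENSG00000237550; the cause was not tested. MTND6P4, near 0, was 0.165 with library totals, 0.00206 with limma-voom, 0.00309 with the replicate block and 0.0946 with the covariate. ARL14EPP1 was 0.023 with library totals. Leaving out a library, MTND6P4 ranged from -0.0698 to 0.13 and ENSG00000237550 from -0.0104 to 2.02. Of the 1708 features, 1537 were too low for a test, and most held under 1 count per library.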
